A study of Mus musculus with 12 samples.

Results

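The genes followed here are 10 markers of successive stages of adult hippocampal neurogenesis: Sox2, Nes, Mki67, Top2a, Eomes, Neurod1, Sox11, Igfbpl1, Dcx and Calb2. They were taken by name, and all 10 were among the 35580 genes whose transcripts were summed from the transcript table. The table covers the hippocampi of 12 male C57BL/6 mice (C57BL/6J in the methods of the study, which also give the sex) on postnatal day 70, with 1 library per mouse and 3 mice in each of 4 groups. Control dams had only water and their pups stayed with them. The ethanol group came from dams with free access to 10% ethanol beside water during gestation and, per the methods of the study, until postnatal day 10. The stress group spent 3 hours of each day from postnatal day 2 to 14 alone, away from dam and litter, and the ethanol + stress group had both exposures. Intake was voluntary and blood alcohol was not measured. Stressed and unstressed pups came from the same litters, but the litter of each mouse was not given in the labels. P-values therefore measure the spread between these mice, some of which may be littermates. The hippocampus was taken whole, so fewer cells of a type and less RNA per cell cannot be told apart.

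New granule neurons are added to the dentate gyrus throughout adult life. Radial glia-like stem cells, which carry Sox2 and nestin, give rise to dividing intermediate progenitors that switch on Eomes, and these become neuroblasts and immature neurons that carry Neurod1, Sox11, Igfbpl1, doublecortin and, for a short time, calretinin. These cells are a small share of the hippocampus, and other cells of it use some of the same genes: astrocytes use Sox2, interneurons Calb2 and Cajal-Retzius cells Eomes.

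Levels are given in TPM, the deposited abundance scaled to transcript length and library, summed over the transcripts of a gene. In the control mice the order from high to low was Calb2, Sox2, Neurod1, Sox11, Nes, Dcx, Top2a, Igfbpl1, Mki67 and Eomes. Calb2 had 46.4 ± 1.54 TPM (SD, n = 3) and Eomes 0.490 ± 0.153 TPM. The control ranges of Nes and Dcx overlapped, as did those of Top2a and Igfbpl1 and those of Mki67 and Eomes, and every other neighbouring pair in this order was apart. All 10 genes passed the filter of at least 0.1 TPM in at least 6 libraries, along with 18434 genes in all, and the mean level of Calb2 was above that of 82.3% of them and that of Eomes above 16.3%.

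The libraries held an estimated 12050000 to 14980000 read pairs, worked out from the steps between low values. On that estimate Sox2 rested on at least 462 read pairs in each library, Mki67 on 34.9 to 58.8 and Eomes on 6.98 to 36. Prox1, a defining gene of dentate granule cells, lay between 12.8 and 20.9 TPM in every library. The 8 markers of subventricular and olfactory neuroblasts summed to 55.2 to 73.3 TPM, of which Gad2 and Dlx1, genes that interneurons also use, held 26.9 to 38 and 18.4 to 26.8 TPM. Dlx6 stood at 2.56 to 5.78 TPM, and Dlx2, Dlx5, Sp8, Sp9 and Th each between 0.308 and 1.99 TPM. Choroid plexus markers ranged from 43.4 to 7270 TPM in sum, and Y-linked transcripts were present in every library (106 to 132 TPM in sum). The 5 red blood cell markers (Hba-a1, Hba-a2, Hbb-bs, Hbb-bt and Alas2) summed to 1603 to 2022 TPM in control, and to 3146 to 6815 with ethanol, 2593 to 3392 with stress and 2454 to 6480 with both. All 5 were higher in ethanol and in ethanol + stress (limma, unadjusted p under 0.01), none passed in stress, and Hba-a1 and Hba-a2 are near-identical copies whose reads cannot be divided with certainty. Ethanol replicate 1 and stress replicate 1 stood apart in Calb2 and Eomes, and results that rest on them are given with and without them.

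Differences were tested with limma on the log2(TPM + 0.5) scale, and a gene was called at an unadjusted p under 0.01. None of the 10 genes was called in any of 6 comparisons, though Dcx passed under some alternatives given with that gene. Of all genes tested, 0.678% were called for ethanol, 0.51% for stress and 0.971% for both, each against control. The share was 1.12% for ethanol averaged over stress, 0.586% for stress averaged over ethanol and 0.461% for the interaction of the exposures. The comparisons with control share the same 3 control mice.

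At an unadjusted p under 0.05, Dcx passed in ethanol + stress (a level that 5.37% of all genes passed) and in ethanol averaged over stress (5.79% of all genes). No other of the 10 passed 0.05 in these, and none did in ethanol (3.63%), stress (2.4%), stress averaged over ethanol (3.28%) or the interaction (2.69%). None had an adjusted p under 0.05, which 0.00542% of genes had in ethanol, in ethanol + stress and in ethanol averaged over stress, and 0% in the other three. In limma voom on the estimated read pairs, none of the 10 was called either, and Igfbpl1 in stress and Dcx in ethanol averaged over stress were under 0.05.

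The estimates lay on both sides of 0. In ethanol, 5 were above and 5 below 0, with a median log2 difference of 0.00014 beside 0.0228 over all genes tested. In stress, 6 were above 0, with a median of 0.0489 beside 0.00422, and in ethanol + stress 5 were, with a median of 0.01546 beside 0.0228. The 95% intervals against control reached 0.23 to either side of the estimate for Sox2, the narrowest of the 10, and 0.67 for Eomes, the widest.

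**Figure D1:**
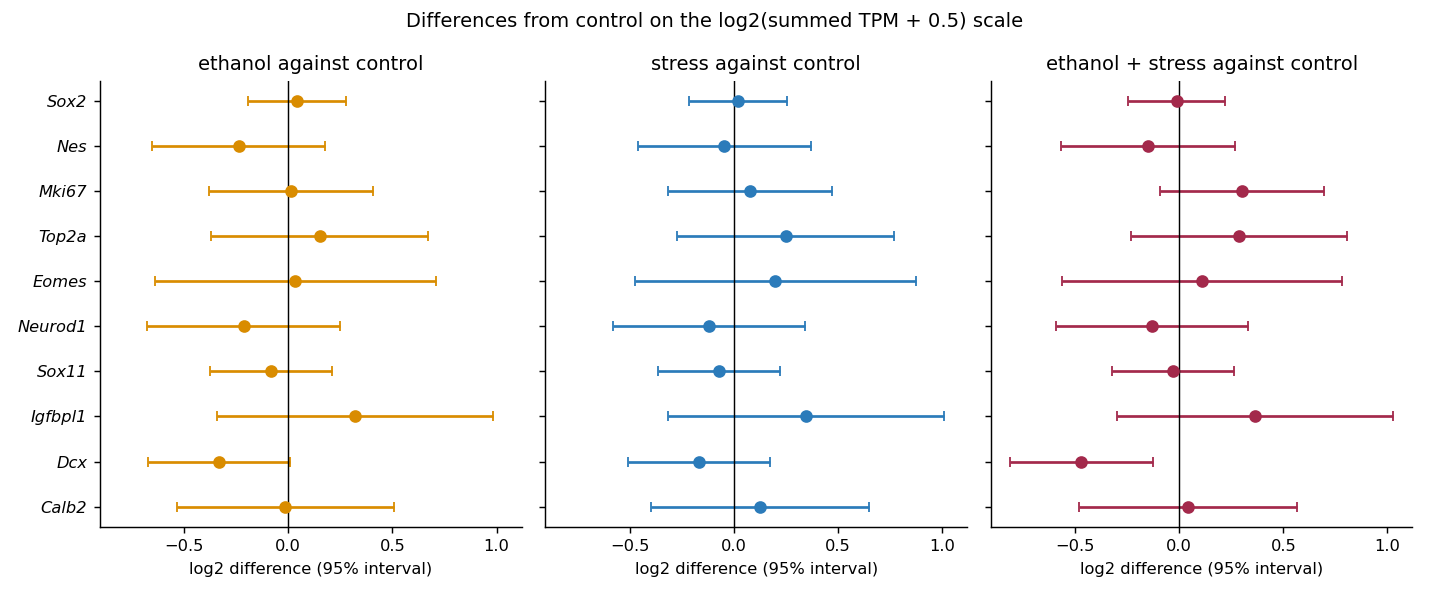
Log2 differences from control (horizontal axis, on the log2(summed TPM + 0.5) scale) for the 10 genes in ethanol, stress and ethanol + stress, with points for limma estimates and bars for 95% intervals (3 mice per group). Every interval crosses 0 except that of Dcx in ethanol + stress, which runs from -0.81 to -0.13.

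Dcx (ENSMUSG00000031285.14) encodes doublecortin, a microtubule-binding protein of migrating and immature neurons. It lies on chromosome X, from 143855842 to 143933311 on the minus strand of mm10. Its promoter is shown with those of Mki67 and Top2a, since Dcx had the smallest p of the 10 genes and the other two are cell cycle genes. RefSeq starts (GRCm38.p6) were found for 8 of the 10 genes. The bases before the start are given 5′ to 3′ on the strand of the gene, ending before the annotated exons, with CCAAT (the CCAAT box) and TTTGAA (the cell cycle genes homology region) in capitals on either strand.
Dcx, chrX:143933312-143933469, minus strand: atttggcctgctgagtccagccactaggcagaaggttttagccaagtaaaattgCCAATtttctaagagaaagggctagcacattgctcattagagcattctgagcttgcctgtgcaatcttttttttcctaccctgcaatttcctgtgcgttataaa
Mki67, chr7:135716380-135716629, minus strand: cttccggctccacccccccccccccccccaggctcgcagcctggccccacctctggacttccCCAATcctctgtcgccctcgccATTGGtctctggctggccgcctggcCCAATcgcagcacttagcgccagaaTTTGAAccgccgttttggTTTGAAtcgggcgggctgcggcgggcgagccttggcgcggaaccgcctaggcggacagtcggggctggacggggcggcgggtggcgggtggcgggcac
Top2a, chr11:99024190-99024439, minus strand: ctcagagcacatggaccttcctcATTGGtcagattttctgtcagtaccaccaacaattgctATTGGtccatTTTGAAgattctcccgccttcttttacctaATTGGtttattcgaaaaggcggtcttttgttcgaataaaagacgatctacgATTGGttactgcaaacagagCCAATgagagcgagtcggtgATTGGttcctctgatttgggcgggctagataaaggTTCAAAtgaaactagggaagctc
The Top2a sequence held 6 CCAAT boxes and 2 TTTGAA elements, that of Mki67 held 3 and 2, and that of Dcx, which is shorter because annotated exons begin earlier, 1 CCAAT box and no TTTGAA. A second RefSeq start of Dcx left 63 bases of the same stretch, with neither. Of 32536 windows of 250 bases before RefSeq starts, 33.8% held CCAAT and 15.8% TTTGAA, and 21.2% and 11.3% did in the part of the windows as long as the Dcx sequence. These are matches of letters only.

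Dcx stood at 4.38, 4.06 and 3.76 TPM in the control mice. With ethanol it stood at 3.16, 2.97 and 3.24 TPM, and with both exposures at 2.82, 3 and 2.58 TPM. Every mouse with ethanol, alone or with stress, was below every control mouse. Dcx was the 1 gene of the 10 with no overlap in each of these comparisons, beside 3.19% of all genes wholly below control and 5.06% wholly above in ethanol, and 4.62% and 5.63% in ethanol + stress. The stress mice, at 3.39, 3.01 and 4.42 TPM, overlapped with control. In stress all 10 genes overlapped with control, while 3.39% of all genes lay wholly below it and 3.81% wholly above.

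The log2 difference of Dcx from control was -0.47 in ethanol + stress (SE 0.157, limma unadjusted p = 0.0115, adjusted p = 0.791), -0.33 in ethanol (unadjusted p = 0.056) and -0.17 in stress (unadjusted p = 0.309). Averaged over stress, the ethanol difference was -0.32 (SE 0.111, 95% interval -0.56 to -0.08, limma unadjusted p = 0.0146, adjusted p = 0.76). Summed over protein-coding transcripts only, Dcx was called, at -0.54 in ethanol + stress (limma unadjusted p = 0.00374) and -0.40 for ethanol averaged over stress (limma unadjusted p = 0.00287). It was also called in ethanol + stress with libraries rescaled to a common sum, at -0.59 (limma unadjusted p = 0.00868). That rescaling moved the median of all genes from 0.0228 to -0.0922, and Dcx from -0.47 to -0.59. The interaction was 0.03 (95% interval -0.45 to 0.51, limma unadjusted p = 0.895).

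**Figure D2:**
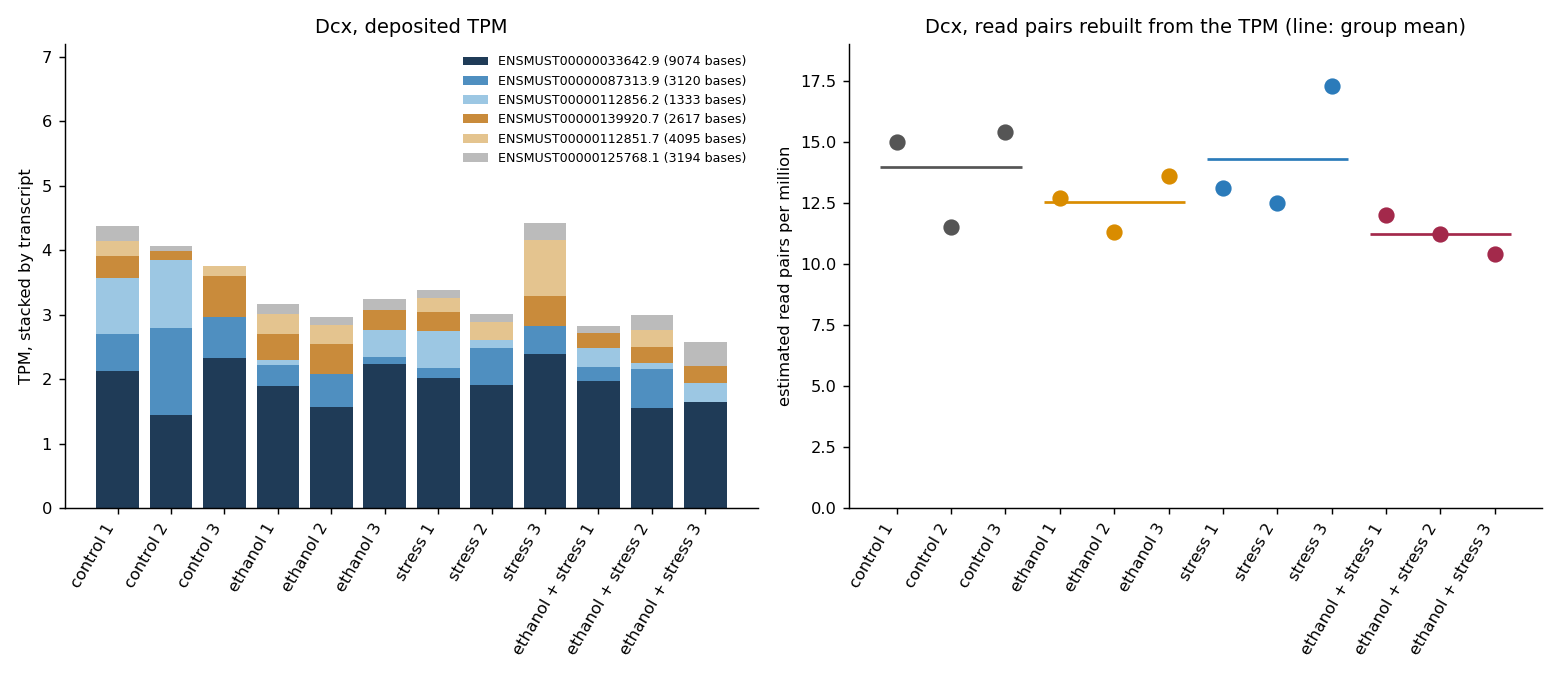
Left, deposited TPM of the 6 Dcx transcripts stacked per mouse; right, estimated read pairs of Dcx per 1000000 in the same mice. The summed TPM of all 6 mice exposed to ethanol lies below the 3 control mice, whereas in read pairs the control mouse at 11.5 lies among them.

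The estimate lay closer to 0 in the longest transcript than in the sum, a contrast that was not itself tested. ENSMUST00000033642.9, of 9074 bases, made up 56.6% of the Dcx TPM and rested on 95.7 to 198 read pairs per library. It stood at 2.13, 1.44 and 2.32 TPM in the control mice against 1.97, 1.55 and 1.65 in ethanol + stress, and the ranges overlapped (log2 difference -0.14, limma unadjusted p = 0.602, and -0.30 to -0.0305 when 1 library was left out). ENSMUST00000087313.9, of 3120 bases, rested on 0 to 29.4 read pairs and stood at 0.567, 1.35 and 0.646 TPM in the control mice against 0.221, 0.617 and 0 in ethanol + stress (log2 difference -0.83, SE 0.361, limma unadjusted p = 0.0427). Leaving out 1 library gave -1.13 to -0.55 for it, and pseudocounts of 0.1 and 1 gave -1.66 and -0.54. ENSMUST00000112856.2, of 1333 bases, never exceeded 8.94 read pairs, and its control values were 0.876, 1.06 and 0 TPM against 0.294, 0.089 and 0.289 with both exposures.

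Counted in read pairs, Dcx overlapped with control in each exposed group. Per 1000000 read pairs the control mice had 15, 11.5 and 15.4 from Dcx, and the stress mice 13.1, 12.5 and 17.3. The ethanol mice had 12.7, 11.3 and 13.6, and the ethanol + stress mice 12, 11.2 and 10.4. The limma voom difference was -0.14 in ethanol (unadjusted p = 0.359) and -0.31 in ethanol + stress (95% interval -0.65 to 0.02, unadjusted p = 0.0636). Red blood cell markers were higher in the same groups, as given above. Of 9 interneuron markers, 7 had estimates below 0 in ethanol + stress (median -0.215) and 6 for ethanol averaged over stress (median -0.191). None was called and 3 were under 0.05 in each (limma, unadjusted), as were 5.37% and 5.79% of all genes. The interneuron markers summed to 822.6 to 978 TPM in control, 816.6 to 889.2 with ethanol and 802.5 to 841.9 with both. The 5 dentate granule cell markers summed to 92.2 to 105.5 TPM in control, to 71.2 to 91.04 with ethanol and to 89.6 to 91.9 with both. Without C1ql2, which held about as much as the other 4 together and is given again among the mature granule cell genes, they summed to 44.9 to 48.4 TPM in control, 38.8 to 47.9 with ethanol and 43.9 to 54.3 with both, and the groups overlapped. With group means removed, Dcx and the granule cell sum had r = -0.228 over the 12 mice (permutation p = 0.473; rho = -0.224) and r = -0.524 without ethanol replicate 1 and stress replicate 1 (permutation p = 0.119, n = 10). In ethanol, 8 of 8 markers of oligodendrocyte precursors (median -0.157), 6 of 6 of mature oligodendrocytes (-0.233), 9 of 9 of choroid plexus (-0.807) and 6 of 8 of subventricular neuroblasts (-0.078) also had estimates below 0, and none was called. In ethanol + stress the same held for 6 of 8, 3 of 6, 1 of 9 and 6 of 8. The part of these marker lists and of the red blood cell and interneuron markers in the Dcx values was not tested.

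Sox2 (ENSMUSG00000074637.7, chromosome 3, 34650405 to 34652461, plus strand) encodes a transcription factor that maintains stem cells, and lies inside the non-coding gene Sox2ot on the same strand. Among unexposed mice it measured 32.6, 36.4 and 33.6 TPM, and among stressed ones 37.3, 32.9 and 33.9 TPM. The mice with ethanol measured 37, 38 and 30.9 TPM and those with both exposures 31, 33.1 and 37.9 TPM. Levels varied least of the 10 genes, by 1.23-fold from the lowest to the highest mouse, and all groups overlapped. Its differences from control were 0.04, 0.02 and -0.01 in ethanol, stress and both, with 95% intervals between -0.24 and 0.28.

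Nes (ENSMUSG00000004891.16, chromosome 3, 87971078 to 87980451, plus strand) encodes nestin, an intermediate filament of stem cells that vascular cells can also carry. Levels of 3.54, 4.86 and 4.28 TPM were found without exposure, of 4.37, 3.06 and 3.13 after ethanol, of 4.17, 4.16 and 3.83 after stress and of 4.78, 3.53 and 3.07 after both. All groups overlapped, and the difference farthest from 0 was -0.24, in ethanol (limma unadjusted p = 0.235), which ran from -0.38 to -0.14 when 1 library was left out. Endothelial markers summed to 71.6 to 93.2 TPM over all libraries.

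Mki67 (ENSMUSG00000031004.8, chromosome 7, 135689784 to 135716361, minus strand) encodes Ki-67, a protein that coats chromosomes in dividing cells. Its TPM values were 0.49, 0.527 and 0.759 in unexposed mice and 0.604, 0.61 and 0.573 after ethanol. After stress they were 0.582, 0.789 and 0.576, and after both 0.592, 0.899 and 1.07. Replicates 2 and 3 of ethanol + stress were the highest of all mice, and the groups overlapped in TPM (log2 difference 0.30, 95% interval -0.09 to 0.70, limma unadjusted p = 0.119). ENSMUST00000033310.8, of 10061 bases, made up 83.5% of the level and stood at 0.592, 0.54 and 0.577 TPM with both exposures. Its log2 difference from control was 0.13 (limma unadjusted p = 0.574). ENSMUST00000211238.1, of 575 bases, held 0.359 and 0.492 TPM in replicates 2 and 3 of ethanol + stress. That rested on 1.19 and 1.44 read pairs, under the limit of 3. For the summed gene, per 1000000 read pairs the control mice had 3.01, 3.23 and 2.7, the ethanol mice 2.83, 3.76 and 3.52, the stress mice 3.58, 4.81 and 3.53 and those with both 3.62, 3.39 and 3.65. On that scale every mouse with stress, alone or with ethanol, was above every control mouse, as in 3.26% of all genes for stress and 5.28% for both, and ethanol overlapped. The limma voom difference was 0.39 in stress (95% interval -0.01 to 0.78, unadjusted p = 0.0552) and 0.25 in both (unadjusted p = 0.198), beside 0.08 in stress in TPM.

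Top2a (ENSMUSG00000020914.17, chromosome 11, 98992943 to 99024189, minus strand) encodes the topoisomerase that untangles DNA before cells divide. Among unexposed mice it measured 1.85, 1.82 and 2.36 TPM, and among stressed ones 2.84, 2.17 and 2.44 TPM. The mice with ethanol measured 1.7, 3.38 and 2 TPM and those with both exposures 1.85, 2.83 and 3.11 TPM. The mean was above control in each exposed group, every range overlapped, and the smallest p was 0.252, in ethanol + stress (limma, unadjusted). Its coding transcript ENSMUST00000068031.7, of 5221 bases, made up 49.2% of the level and gave -0.15 in ethanol and -0.15 in ethanol + stress, opposite in sign to the summed gene (0.15 and 0.29).

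Of the 22 transcripts of the 10 genes that were tested, 1 was called. It was ENSMUST00000139460.1 of Top2a, a non-coding transcript of 796 bases, in stress, where 0.914% of all 59852 transcripts were called. The share of transcripts called was 1.26% in ethanol, 1.21% in ethanol + stress, 1.47% for ethanol and 0.934% for stress averaged over the other exposure, and 0.854% for the interaction. It had 0, 0.996 and 0 estimated read pairs in the control mice against 5.26, 3.54 and 2.64 in stress. These lie near the limit of 3 read pairs, so no fold is given.

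Eomes (ENSMUSG00000032446.14, chromosome 9, 118478212 to 118486132, plus strand) encodes Tbr2, a T-box factor of intermediate progenitors. Levels of 0.661, 0.368 and 0.439 TPM were found without exposure, of 1.1, 0.289 and 0.306 after ethanol, of 1.21, 0.457 and 0.379 after stress and of 0.527, 0.479 and 0.687 after both. Levels varied 4.18-fold, the most of the 10 genes, and ethanol replicate 1 and stress replicate 1 were highest. The difference from control was 0.03 in ethanol and 0.20 in stress, but -0.30 and -0.10 without those libraries.

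Neurod1 (ENSMUSG00000034701.9, chromosome 2, 79452521 to 79456751, minus strand) encodes a basic helix-loop-helix factor needed for granule neurons to mature, and overlaps Cerkl on the same strand. Its TPM values were 8.34, 10.7 and 12.8 in unexposed mice and 8.58, 7.22 and 11.6 after ethanol. After stress they were 9.29, 10.5 and 9.06, and after both 12.6, 8.03 and 8.52. All groups overlapped, and the difference in ethanol was -0.21 (95% interval -0.68 to 0.25, limma unadjusted p = 0.335), and ran from -0.39 to -0.0670 when 1 library was left out.

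Sox11 (ENSMUSG00000063632.6, chromosome 12, 27334264 to 27342574, minus strand) encodes a transcription factor of committed neuroblasts. Among unexposed mice it measured 6.7, 6.49 and 7.34 TPM, and among stressed ones 5.6, 7.22 and 6.75 TPM. The mice with ethanol measured 6.59, 5.87 and 6.87 TPM and those with both exposures 6.2, 7.28 and 6.57 TPM. The spread was 1.31-fold over all mice, all groups overlapped, and the differences from control lay between -0.08 and -0.03.

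Igfbpl1 (ENSMUSG00000035551.6, chromosome 4, 45809468 to 45826923, minus strand) encodes a secreted protein related to the insulin-like growth factor binding proteins. Levels of 1.98, 2.58 and 1.16 TPM were found without exposure, of 3.25, 1.92 and 2.24 after ethanol, of 3.67, 2.28 and 1.77 after stress and of 1.72, 3.2 and 2.8 after both. The estimates were 0.32, 0.35 and 0.36 in ethanol, stress and both, all ranges overlapped, and none passed. Leaving out 1 library moved them to 0.0755 to 0.52 in ethanol, 0.10 to 0.55 in stress and 0.12 to 0.58 in both, and without ethanol replicate 1 and stress replicate 1 they were 0.14, 0.10 and 0.36. Its coding transcript ENSMUST00000044297.6 made up 73.6% of the level and gave 0.17, 0.49 and 0.15. Per 1000000 read pairs the stress mice had 4.74, 3.75 and 2.93 and the control mice 2.64, 3.07 and 1.93 (limma voom log2 difference 0.57, unadjusted p = 0.0431, adjusted p = 1).

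Calb2 (ENSMUSG00000003657.9, chromosome 8, 110137502 to 110168210, minus strand) encodes calretinin, a calcium-binding protein of immature granule neurons and many interneurons. Its TPM values were 46.6, 44.7 and 47.8 in unexposed mice and 66.7, 43.1 and 33.6 after ethanol. After stress they were 70.5, 41.6 and 44.2, and after both 42.1, 45.8 and 56.3. Replicate 1 of ethanol and of stress were far above the others, and control mice differed little. The difference from control in ethanol was -0.01, and -0.28 without these libraries (limma unadjusted p = 0.0819). In stress it was 0.13, and -0.11 without them. Interneuron markers summed to 802.5 to 978 TPM over all mice.

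**Figure D3:**
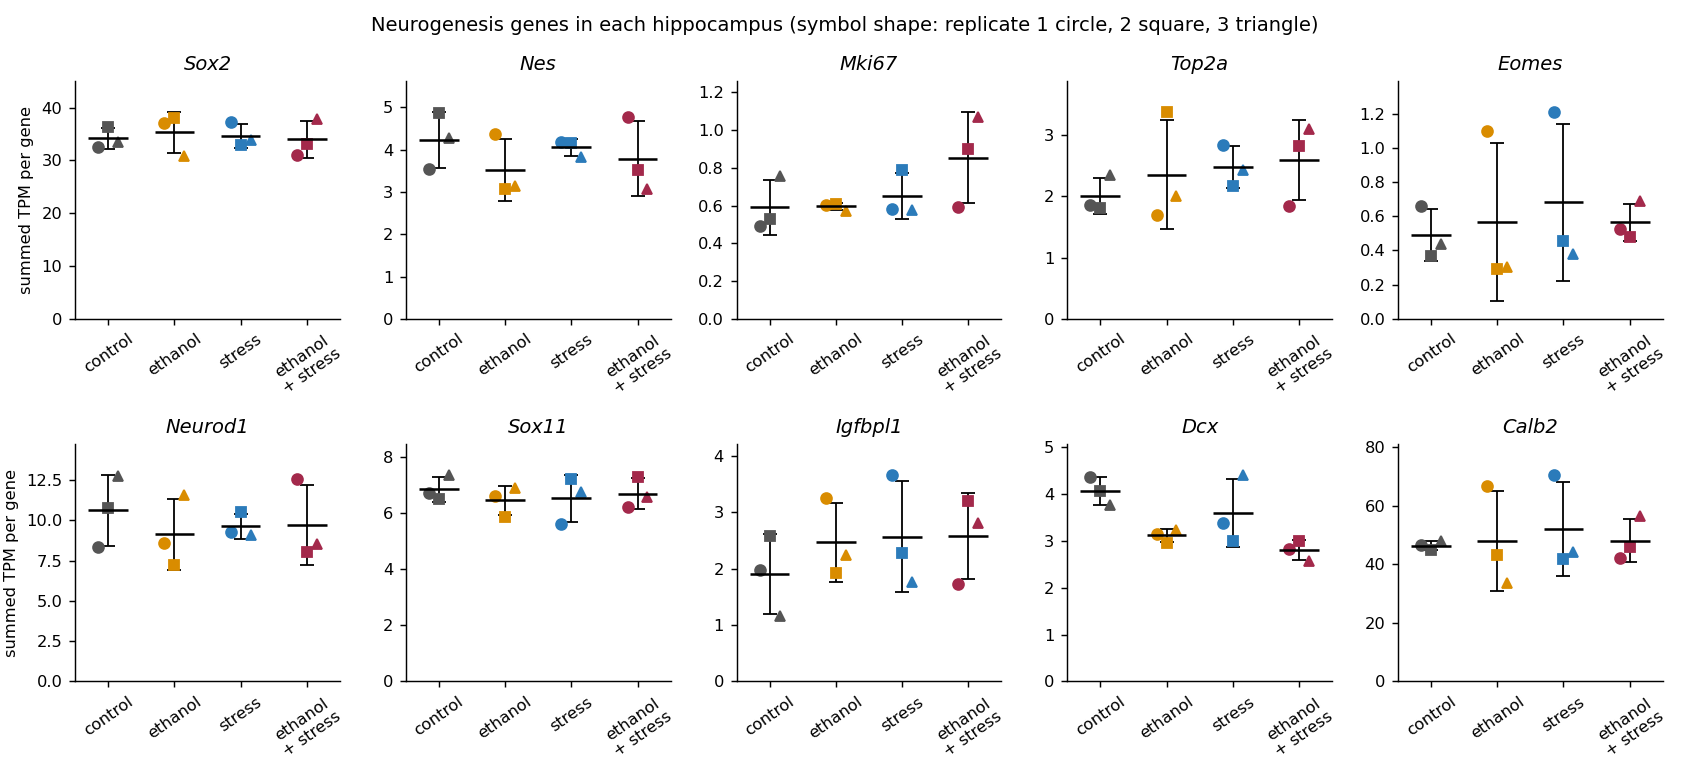
Summed TPM of the 10 genes in each of the 12 mice (points), with the mean of each group as a line and its SD as a bar (n = 3). In the Dcx panel all ethanol and all ethanol + stress points lie below the control points, and replicate 1 of ethanol and of stress are the highest points for Eomes and Calb2.

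Whether the genes varied together was examined for 45 pairs over the 12 libraries, with the mean of each group removed. The 1 pair that passed was Eomes and Calb2 (r = 0.904, permutation p = 0.00022, adjusted p = 0.0099; rho = 0.825, permutation p = 0.00168, adjusted p = 0.0756). The 2 libraries farthest from the median of Eomes were ethanol replicate 1 and stress replicate 1, and the pair rested on them. Without them r was 0.698 with the group means kept from all 12 libraries, and 0.332 (permutation p = 0.349, n = 10) with the means taken anew. Sox2 and Calb2 followed (r = 0.715, permutation p = 0.00865, adjusted p = 0.195; rho = 0.685). The cell cycle genes Mki67 and Top2a had r = 0.486 in TPM (permutation p = 0.108; rho = 0.462) and r = -0.514 per 1000000 read pairs (permutation p = 0.0867; rho = -0.476). Neurod1 and Dcx, both genes of neuroblasts, had r = -0.212 (permutation p = 0.518; rho = -0.294).

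Of 40 relations between a gene and a property of the library, 7 had an adjusted p under 0.05 by r, and 1 of these, Neurod1 with the share in the 20 highest transcripts, also by rank. Neurod1 fell as the share of TPM in the 20 highest transcripts, 20.3% to 29.2%, rose (r = -0.864, permutation p = 0.00027, adjusted p = 0.0064; rho = -0.86, permutation p = 0.00067, adjusted p = 0.0268; r = -0.698 without the 2 farthest libraries). Top2a rose with that share (r = 0.785, permutation p = 0.00242, adjusted p = 0.0178; rho = 0.79, permutation p = 0.00335, adjusted p = 0.0615; r = 0.784 without the 2 farthest libraries), and so did Sox2 (r = 0.804, permutation p = 0.0014, adjusted p = 0.0148; rho = 0.748, permutation p = 0.00743, adjusted p = 0.0743; r = 0.585 without the 2 farthest libraries). Without ethanol replicate 1 and stress replicate 1, with the group means taken anew over 10 libraries, r was -0.867 (permutation p = 0.00067, adjusted p = 0.0134, n = 10) for Neurod1, 0.92 (permutation p = 0.00025, adjusted p = 0.01, n = 10) for Top2a and 0.837 (permutation p = 0.0029, adjusted p = 0.0232, n = 10) for Sox2.

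The markers of mature oligodendrocytes, which make myelin, summed to 2824 to 6167 TPM. Sox2 was higher where this sum was higher (r = 0.782, permutation p = 0.00267, adjusted p = 0.0178; rho = 0.727, permutation p = 0.00992, adjusted p = 0.0794; r = 0.529 without the 2 farthest libraries), and Neurod1 was lower (r = -0.739, permutation p = 0.00677, adjusted p = 0.0387; rho = -0.692, permutation p = 0.0156, adjusted p = 0.0894; r = -0.401 without the 2 farthest libraries). With ethanol replicate 1 and stress replicate 1 left out, r was 0.732 (permutation p = 0.0163, adjusted p = 0.0815, n = 10) for Sox2 and -0.769 (permutation p = 0.00927, adjusted p = 0.0587, n = 10) for Neurod1. Top2a then also passed (r = 0.854, permutation p = 0.00199, adjusted p = 0.0199, n = 10), against r = 0.609 over all 12 (permutation p = 0.0358, adjusted p = 0.159).

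Eomes was lower where the dentate granule cell markers were higher (r = -0.841, permutation p = 0.00032, adjusted p = 0.0064; rho = -0.692, permutation p = 0.0155, adjusted p = 0.0894; r = -0.709 without the 2 farthest libraries), and so was Calb2 (r = -0.805, permutation p = 0.00148, adjusted p = 0.0148; rho = -0.776, permutation p = 0.00461, adjusted p = 0.0615; r = -0.61 without the 2 farthest libraries). These relations rested on ethanol replicate 1 and stress replicate 1, where the granule cell sum was lowest within its group (71.2 and 92.9 TPM). Without C1ql2 in the sum, r was -0.663 for Eomes (permutation p = 0.0193) and -0.721 for Calb2 (permutation p = 0.00826). Without both libraries, r was -0.394 (permutation p = 0.26, adjusted p = 0.578, n = 10) for Eomes and -0.274 (permutation p = 0.448, adjusted p = 0.689, n = 10) for Calb2. The part of the dissection in these levels was not tested.

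**Figure D4:**
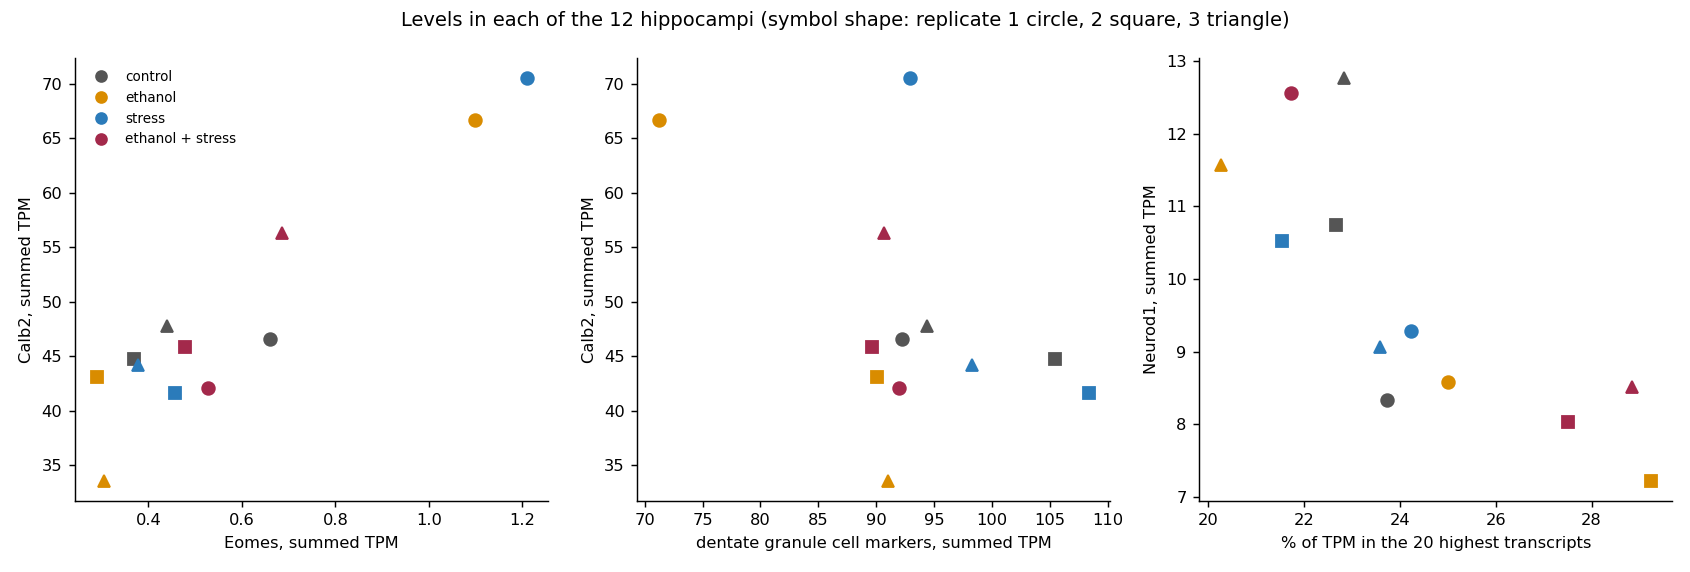
Left, Calb2 against Eomes; middle, Calb2 against the summed dentate granule cell markers; right, Neurod1 against the percentage of TPM in the 20 highest transcripts, levels in TPM over the 12 mice and colored by group. Replicate 1 of ethanol and of stress have the highest Eomes and Calb2, and Neurod1 is lowest in ethanol replicate 2, where the share is highest (29.2%).

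Among 14398 genes with a mean of at least 1 TPM, likeness was taken as r of group-centred log2 levels over the 12 libraries. The genes most like Dcx were Tigd3 (r = 0.888) and Xrcc3 (0.886). Eomes was most like Fah (0.967) and Phldb1 (0.952), Neurod1 like Fam126b (0.979) and Ddx3x (0.977), and Sox2 like Klhl13 (0.959) and Ctnnbip1 (0.957). For Nes they were Prss23 (0.894) and Nefl (0.892), for Sox11 1700025G04Rik (0.942) and Zfhx2 (0.91), and for Mki67 Krt1 (0.949) and Zfp703 (0.924). For Top2a they were Aagab (0.965) and Rchy1 (0.963), and for Igfbpl1 Ccdc162 (0.98) and Rpl37rt (0.92).

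Beyond the 10 genes, 6 lists covered other genes of the lineage and its niche. The 28 genes of neuroblasts and immature neurons had none called in any of the 6 comparisons and none at an unadjusted p under 0.05 (limma), while limma voom on read pairs called none and had 1 under 0.05. Over all genes, 0.461% to 1.12% were called by limma and 2.4% to 5.79% were under 0.05. In ethanol, stress and both, 10 of the 28 estimates were above 0 each time, beside 55.6%, 51.5% and 54.1% of all genes. The list medians were -0.0242 for ethanol, -0.0324 for stress and -0.0422 for both, beside 0.0228, 0.00422 and 0.0228 over all genes. The smallest p was that of Gap43, a growth cone protein, for stress averaged over ethanol (-0.16, limma unadjusted p = 0.0514). It stood at 173 to 214 TPM in the 6 unstressed mice and 146 to 186 TPM in the 6 stressed ones, which overlapped.

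Of 22 genes of quiescent and radial glia-like stem cells, 20 had an estimate above 0 in ethanol + stress (median 0.132 beside 0.0228), as did 54.1% of all genes tested, and 1 was called, where 0.971% of all genes were. The list holds Gfap, Slc1a3, Aldoc and Sox9, which astrocytes use as well, and Gfap is also among the astrocyte markers. In the same comparison 5 of 6 astrocyte markers (median 0.123), 6 of 6 microglia markers (median 0.154), 6 of 6 of ependyma (median 0.301) and 8 of 9 of choroid plexus (median 0.301) had estimates above 0 and none was called, and their part in the stem cell list was not tested. Id1, an inhibitor of basic helix-loop-helix factors found in stem cells and endothelium, stood at 15.7, 16.6 and 21.9 TPM in the control mice against 23.5, 28.9 and 27.7 with both exposures. All 3 mice with both exposures were above all control mice, as in 5.63% of all genes. The log2 difference of Id1 was 0.56 (SE 0.133, limma unadjusted p = 0.00133, adjusted p = 0.791), and read pairs gave 0.55. With libraries rescaled to a common sum it was 0.43 and not called (limma unadjusted p = 0.0113). In ethanol, where 0.678% of all genes were called, the receptor gene Notch1 passed (0.66, limma unadjusted p = 0.00624), but its most abundant transcript gave -0.11 and its read pairs -0.08.

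Of 30 cell cycle genes, 1 was called in ethanol + stress (0.971% of all genes). Mcm7, a subunit of the replicative helicase, stood at 9.94, 11.6 and 13.1 TPM in the control mice against 15.7, 15.8 and 18.3 with both exposures (log2 difference 0.51, limma unadjusted p = 0.00574), but it was not called in read pairs (0.23), with rescaled libraries (0.38) or in its most abundant transcript (0.05). For ethanol averaged over stress (1.12% of all genes), 2 were called in opposite directions: the mitotic kinase gene Cdk1 at 0.69 (limma unadjusted p = 0.00862) and the ribonucleotide reductase gene Rrm2 at -0.45 (limma unadjusted p = 0.00977). Neither was called in read pairs (0.40 and -0.35) or without ethanol replicate 1 and stress replicate 1, and in the most abundant transcript Cdk1 was called while Rrm2, at -0.17, was not. The mitotic kinase gene Aurkb was called in the interaction, as were 0.461% of all genes (-1.33, limma unadjusted p = 0.00354), but rested on 0.972 to 7.99 read pairs per library.

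Of 12 genes of intermediate progenitors, 1 was called in ethanol + stress (0.971% of all genes). Btg2, an antiproliferative gene that neuronal activity also induces in mature neurons, stood at 17, 15 and 16.7 TPM in the control mice against 11, 9.57 and 9.65 with both exposures. All mice with both exposures were below all control mice, as in 4.62% of all genes (log2 difference -0.66, SE 0.211, limma unadjusted p = 0.00889, adjusted p = 0.791). It was also called for stress averaged over ethanol, as were 0.586% of all genes (-0.47, limma unadjusted p = 0.00902), and read pairs gave -0.69 and -0.48, both called. The call in ethanol + stress was lost in each of 6 fits that left out 1 library, while the difference stayed between -0.73 and -0.63, and that for stress averaged over ethanol in 10 of 12 (-0.59 to -0.38). Without ethanol replicate 1 and stress replicate 1 both were called, at -0.66 (limma unadjusted p = 0.000305) and -0.68 (limma unadjusted p = 3.74e-05). Those libraries held the lowest of the ethanol values (9.5, 15.3 and 17.7 TPM) and the highest of the stress values (14.6, 9.33 and 10.5 TPM). They were left out after seeing the data. With the replicate number as a block, Btg2 was called in neither comparison (limma unadjusted p = 0.0163 and 0.0165).

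Of 15 mature granule cell genes, 1 was called, for ethanol averaged over stress (1.12% of all genes). C1ql2, a secreted synaptic protein of mossy fibers, had 47.3, 57.1 and 49.2 TPM without exposure and 49.3, 52.4 and 51.1 after stress alone. Ethanol mice had 32.4, 42.2 and 46.3 TPM and mice with both exposures 37.7, 45.8 and 46. Every mouse with ethanol was below every mouse without it, as in 0.108% of all genes, while 0.239% were wholly above (log2 difference -0.30, SE 0.0934, limma unadjusted p = 0.00825, adjusted p = 0.76). Read pairs gave -0.30, also called, and without ethanol replicate 1 and stress replicate 1 it was -0.23 and not called. Of 34 niche signals and receptors tested, 1 was called: Dll1, a Notch ligand, at -0.54 for stress averaged over ethanol, where 0.586% of all genes were (limma unadjusted p = 0.00301), against -0.24 in read pairs and -0.10 in its most abundant transcript, neither called.

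**Figure D5:**
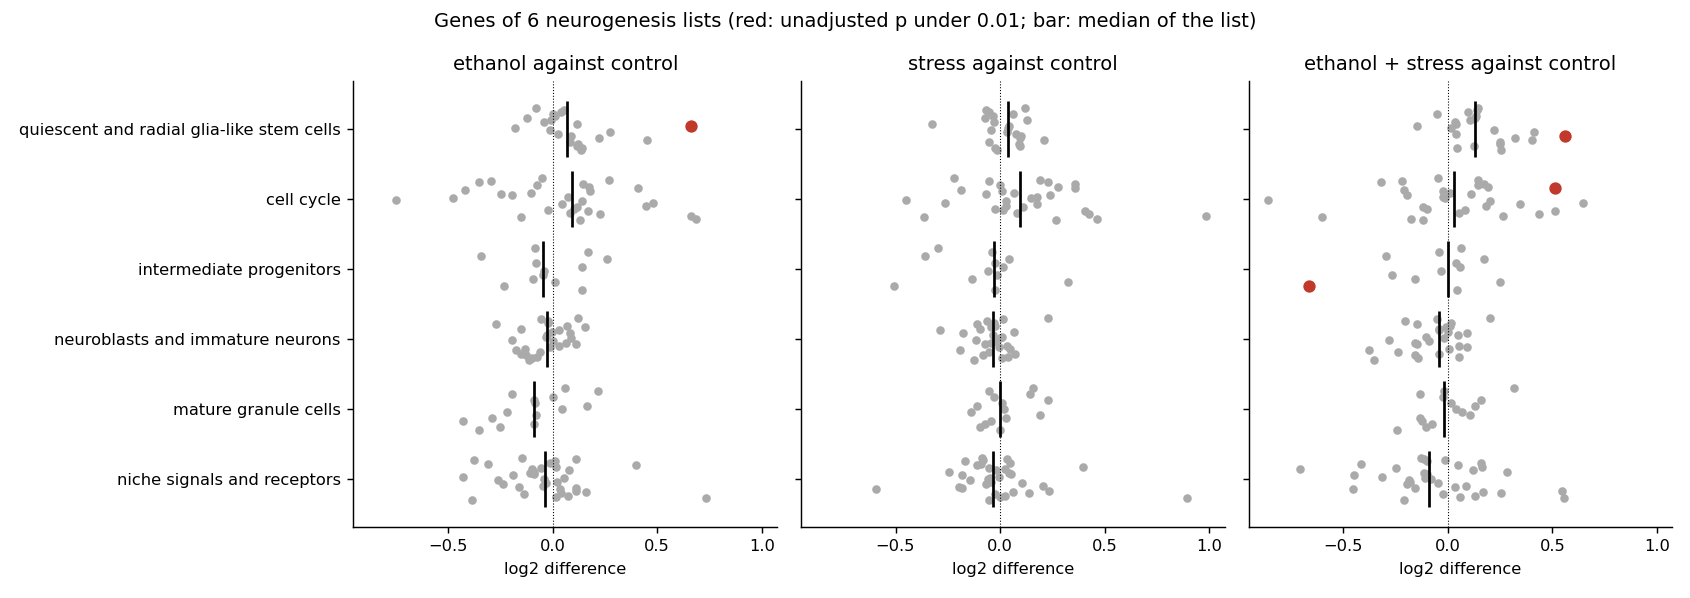
Log2 differences from control (horizontal axis) of the genes of 6 lists, by exposure; each point is a gene, red points passed an unadjusted p under 0.01, and bars are list medians. No gene of the neuroblast list is red in any panel, and the stem cell list has its median at 0.132 in ethanol + stress.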

How the data were processed

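Hippocampal RNA (total, rRNA-depleted, stranded, paired-end) from 12 mice was sequenced, 1 library per mouse. The authors pseudoaligned reads with kallisto to the Ensembl mouse transcriptome (version 38 in the methods of the study, mm10 in the labels) and normalized with sleuth. The versions of kallisto and sleuth were not given in the sources used here. The deposited values are a TPM signal per transcript rescaled between libraries by the authors, with library sums of 889222.3 to 1173649.8. Of 115270 transcripts, 113580 matched the GENCODE annotation and were summed into 35580 genes, and the unmatched held 0.518% to 0.58% of the values.

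Genes with at least 0.1 TPM in at least 6 libraries were tested with limma 3.58.1 (R 4.3.3; lmFit, eBayes with trend, 4 groups in one fit) on log2(TPM + 0.5), with Benjamini-Hochberg adjustment over all 18434 genes. A fold on this scale understates the change of low genes. Correlations were tested with 100000 permutations, two-sided (scipy 1.17.1). Read pairs were estimated from the steps between low values, of which 83% to 85.5% were whole within 0.15, and were tested with limma voom as an alternative chosen after seeing the data. Intervals cover the spread between mice only. Named genes were the 10 genes, up to 4 called genes of each list and comparison (otherwise that of smallest p), the most abundant and any called transcript, and the 2 most alike genes of each (those of Calb2 are not reported here). The 10 genes and the lists were chosen with earlier results of these data known. Alternatives were other pseudocounts, filters, scalings, sums, a replicate block and leaving out libraries, and, chosen after seeing the data, the granule cell sum without C1ql2. On simulated data for ethanol against control over 18434 genes, 97% of 100 genes changed by a log2 of 2 and 85% of 100 changed by 1 were called, with 1.12% of unchanged genes. The noise was drawn independently for each gene. These changes were larger than any difference of the 10 genes from control, and smaller ones were not simulated.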

Additional observations from a re-analysis of the deposited data

Results flagged for a closer look

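The mitotic kinase gene Aurkb was the 1 of 30 cell cycle genes called in the test of the interaction of ethanol and stress. Of all genes, 0.461% were called there. Aurkb stood at 0.602, 0.0817 and 0.54 TPM in control mice and 0.94, 0.952 and 0.832 in ethanol mice, and at 0.504, 0.72 and 0.93 in stress mice and 0.245, 0.137 and 0.479 in those with both exposures. The interaction was -1.33 on the log2 scale (SE 0.364, limma unadjusted p = 0.00354, adjusted p = 1), and -2.71 in read pairs. The gene rested on 0.972 to 7.99 read pairs per library, under the limit of 3 in all mice with both exposures and in control replicates 1 and 2, and the value moved with the pseudocount, to -2.36 at 0.1 and -0.88 at 1, so it gives no size of change. With protein-coding transcripts only it was -0.82 and not called (limma unadjusted p = 0.0288). Control replicate 2 was the lowest of the 12 mice.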

How the results depend on the processing

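No alternative brought more than 1 of the 10 genes past an unadjusted p of 0.01, and that gene was Dcx. In ethanol + stress the count rose from 0 to 1 with size factors, with libraries rescaled to 1000000, without the trend and with protein-coding transcripts only. For ethanol averaged over stress it rose from 0 to 1 without the trend and with protein-coding transcripts only, and ranged from 0 to 1 when 1 library was left out (1 without stress replicate 2). Member transcripts called fell from 1 to 0 with a pseudocount of 0.1 and with no filter, and ranged from 0 to 3 when 1 library was left out. Without ethanol 1 and stress 1, an alternative chosen after seeing the data, the pairs that correlated were Top2a and Calb2 (r = 0.889, permutation p = 0.00069, adjusted p = 0.031; rho = 0.855) and Sox2 and Calb2 (r = 0.864, permutation p = 0.00166, adjusted p = 0.0373; rho = 0.77), 2 in place of 1, and Eomes and Calb2 no longer did (r = 0.332). Of the 7 relations with library properties, the 3 with the share in the 20 highest transcripts passed there, those with granule cell and oligodendrocyte markers did not, and 2 others did, Calb2 with that share (r = 0.893, adjusted p = 0.0169) and Top2a with oligodendrocyte markers (r = 0.854, adjusted p = 0.0199).

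Dcx kept its direction in ethanol and in ethanol + stress under every alternative run; leaving out 1 library gave -0.38 to -0.28 and -0.52 to -0.42, but its most abundant transcript gave -0.0275 and -0.14. Estimates that changed sign were mostly near 0, and the cause was not tested. With a pseudocount of 0.1, Eomes in ethanol was -0.00706. With rescaling, Sox2 and Mki67 in ethanol were -0.0388 and -0.0304 and Calb2 in ethanol + stress -0.0924. With protein-coding or only the most abundant transcripts, Top2a was -0.15 in ethanol and -0.15 in ethanol + stress, Nes in stress 0.00899 and Notch1 in ethanol -0.11, and with the latter Dcx was 0.0935 in stress and -0.20 in the interaction. In read pairs Top2a was -0.0535 in ethanol and -0.0616 in ethanol + stress, Notch1 in ethanol -0.0758, and Dcx 0.0309 in stress and -0.20 in the interaction. Without ethanol 1 and stress 1, Eomes was -0.30 in ethanol and -0.0992 in stress, and in stress Sox2 was -0.0313, Sox11 0.0293 and Calb2 -0.11.

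When 1 library was left out, estimates in ethanol ranged from -0.0133 to 0.13 for Sox2, -0.0529 to 0.12 for Mki67, -0.0921 to 0.32 for Top2a, -0.30 to 0.21 for Eomes and -0.28 to 0.21 for Calb2. In stress they ranged from -0.0313 to 0.0659 for Sox2, -0.15 to 0.0515 for Nes, -0.00844 to 0.18 for Mki67, -0.0992 to 0.38 for Eomes, -0.27 to 0.0197 for Neurod1, -0.14 to 0.0293 for Sox11 and -0.11 to 0.27 for Calb2. In ethanol + stress they ranged from -0.0904 to 0.0530 for Sox2, -0.32 to 0.00724 for Neurod1, -0.0912 to 0.0169 for Sox11 and -0.0761 to 0.13 for Calb2, and the Dcx interaction from -0.0755 to 0.17. Of the called list genes, Id1 and Dll1 stayed called whichever library was left out, but Id1 was not called with rescaling (0.43, limma unadjusted p = 0.0113), and Dll1 was -0.10 in its most abundant transcript and -0.24 in read pairs, not called. Calls were lost in 4 such fits for Mcm7 in ethanol + stress, 4 for Notch1, 7 for C1ql2, 10 for Cdk1, 9 for Rrm2, 2 for Aurkb, and 6 and 10 for Btg2 in ethanol + stress and in stress averaged over ethanol, with no change of sign.

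Replicate numbers gave no sign of pairing in the expression levels: of 18 same-numbered pairs 1 had a correlation over 0.1, and 2 of 12 libraries correlated best with their own number. Such correlations cannot tell whether mice shared a litter, which the labels do not give. With the replicate number as a block no member was called, Dcx in ethanol + stress was -0.47 (limma unadjusted p = 0.0204), and Btg2, Cdk1 and Rrm2 were no longer called. Depth limits Eomes, Mki67, Igfbpl1, Aurkb, Cdk1, Rrm2 and the short transcripts of Dcx, Mki67 and Top2a, which rest on few read pairs. Per library, Cdk1 had 3.91 to 17.9, Rrm2 24.9 to 44.9 and Igfbpl1 24.9 to 68.9.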
